A study of Mus musculus with 9 samples.

Results

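The blood vessel genes of 9 mouse mammary tumors were followed across treatment with the PARP inhibitor Talazoparib (TLZ). They were 39 genes, listed by symbol and not by their values, out of 35275 genes in the table of counts, and all 39 were found there. The list holds 28 endothelial genes (16 surface, junction and secreted proteins, 5 receptor tyrosine kinases, 5 transcription factors and 2 lymphatic markers), 5 angiogenic factors and 6 pericyte genes. The tumors arose in Brca1Co/Co;MMTV-Cre;p53+/- mice, in which Cre recombinase under the MMTV promoter removes *Brca1* mainly from the mammary epithelium, while the p53+/- allele is present in all cells of the mouse, vessels included. All 9 tumors share these alleles, and no mouse without them was among the samples. Ages of the mice are not given in the labels. Treatment began once a tumor measured 4 to 5 mm across and consisted of 5 doses, 3 per week. The groups were saline (3 tumors), free intravenous Talazoparib at 0.33 mg/kg (i.v. TLZ, 3 tumors) and intravenous Talazoparib in liposomes at 0.33 mg/kg (NanoTLZ, 3 tumors). No tumor treated with empty liposomes was among the 9, so an effect of the lipid carrier and an effect of the drug it carried cannot be told apart.

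Endothelial cells line every vessel and are held together by junction proteins such as VE-cadherin, while pericytes wrap small vessels from outside. VEGF-A, a secreted factor induced by low oxygen, drives sprouting through the receptor VEGFR2 (*Kdr*), and VEGFR1 (*Flt1*) and its ligand *Pgf* modify that signal. Angiopoietin 1 from mural cells stabilizes vessels through the receptor Tie2 (*Tek*), and angiopoietin 2 from activated endothelium mostly opposes it. In tumors these vessels are typically irregular and leaky. The comparisons below ask whether the transcripts of this system differed between treated and saline tumors, and between the 2 forms of the drug.

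Many endothelial genes carry binding sites for ETS factors such as *Erg* and *Fli1*, both among the listed genes. In the mouse RefSeq table of promoters (GRCm38.p6), the 250 bases before the start could be read for 23 of the 39 genes. The ETS cores AGGAAG and CGGAAG, which share the letters GGAAG, were searched on both strands. One or both were found in 8 of the 23 genes (34.8%), against 42.5% of all 27025 genes in the table. All 8 were endothelial (*Cd34*, *Egfl7*, *Emcn*, *Eng*, *Erg*, *Flt1*, *Robo4* and *Tie1*), out of 15 endothelial genes with a window, and none of the 8 pericyte and factor genes with a window held a core. The other motifs searched were in 1 (SOX motif ACAATG), 4 (GATA motif AGATAA), 5 (E-box CAGATG) and 3 (hypoxia core ACGTG) of the 23 genes, or 4.35%, 17.4%, 21.7% and 13.04%, against 12.2%, 11.4%, 16.3% and 18.5% of all genes. Such matches describe the letters only. Of genes with a core, *Egfl7*, *Eng*, *Erg*, *Flt1*, *Robo4* and *Tie1* had all NanoTLZ tumors above all saline tumors, while *Cd34* and *Emcn* overlapped. Of the endothelial genes without a core, *Clec14a*, *Kdr* and *Tek* were separated in the same way, while *Cldn5*, *Flt4*, *Prox1* and *Tal1* overlapped. Whether a core goes with the level was not tested. Windows are shown for *Eng* (chr2:32646345-32646594, plus strand) and *Flt1* (chr5:147726012-147726261, minus strand), 2 endothelial genes whose levels were above all saline tumors in all NanoTLZ tumors, and for the pericyte gene *Kcnj8* (chr6:142571615-142571864, minus strand), which lay below them. Each ends at the base before the annotated gene start and is written 5′ to 3′ with ETS cores of either strand in capitals.
Eng: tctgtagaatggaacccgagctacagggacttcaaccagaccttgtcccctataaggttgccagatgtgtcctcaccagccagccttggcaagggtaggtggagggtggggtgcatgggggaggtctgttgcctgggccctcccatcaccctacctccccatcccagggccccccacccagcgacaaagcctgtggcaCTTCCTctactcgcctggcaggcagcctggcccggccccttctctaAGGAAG
Flt1: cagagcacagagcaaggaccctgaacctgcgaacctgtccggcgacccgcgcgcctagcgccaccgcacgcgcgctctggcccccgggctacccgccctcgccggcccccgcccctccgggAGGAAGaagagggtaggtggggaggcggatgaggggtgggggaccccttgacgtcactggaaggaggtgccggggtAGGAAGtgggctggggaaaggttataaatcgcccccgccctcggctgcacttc
Kcnj8: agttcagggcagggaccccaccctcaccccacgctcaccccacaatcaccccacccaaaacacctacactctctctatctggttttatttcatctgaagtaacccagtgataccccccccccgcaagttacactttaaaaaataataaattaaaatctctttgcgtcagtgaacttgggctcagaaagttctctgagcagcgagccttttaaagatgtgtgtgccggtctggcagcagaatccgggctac

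Levels are given as CPM, read counts scaled to a common library size after TMM correction, and each tumor is 1 replicate. Summed levels cover every gene of a list, tested or not. Between 17538380 and 21194980 reads were counted per tumor, and 38 of the 39 genes passed the filter on low counts among 15821 genes tested. The exception was *Prox1*. Saline tumor 3 stood apart, with a mean Spearman correlation of 0.867 to the other tumors, where the others had 0.916 to 0.947. *Brca1* was counted at 9.46 to 42.7 CPM and *Trp53* at 23.4 to 108 CPM, and neither checks the genotype, since the groups share it and stroma keeps *Brca1*. Epithelial keratins and adhesion genes summed to 4138 to 9343 CPM per tumor and were detected in all 9. In whole tumors, fewer cells of a type and less RNA per cell cannot be told apart.

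Vascular transcripts spanned a wide range of levels. Per kilobase of exon, the mean level over 9 tumors ran from 0.414 CPM for *Tal1* to 97.5 CPM for *Vegfa* among the 38 tested genes. Endothelial genes had a median of 2.80 CPM per kilobase and were led by *Plvap*, the diaphragm protein of fenestrated and tumor vessels, at 27.8. The defining markers *Pecam1* (5.40 CPM per kilobase) and *Cdh5* (7.65) were present in every tumor. Blood endothelium was thus well represented by its markers. Lymphatic endothelium was not: *Lyve1* stood at 0.545 CPM per kilobase, and *Prox1*, the master regulator of lymphatic identity, at 0.0399 CPM per kilobase with 1, 6 and 6 counts in the saline tumors, 10, 19 and 5 after i.v. TLZ and 7, 1 and 4 after NanoTLZ.

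**Figure D1:**
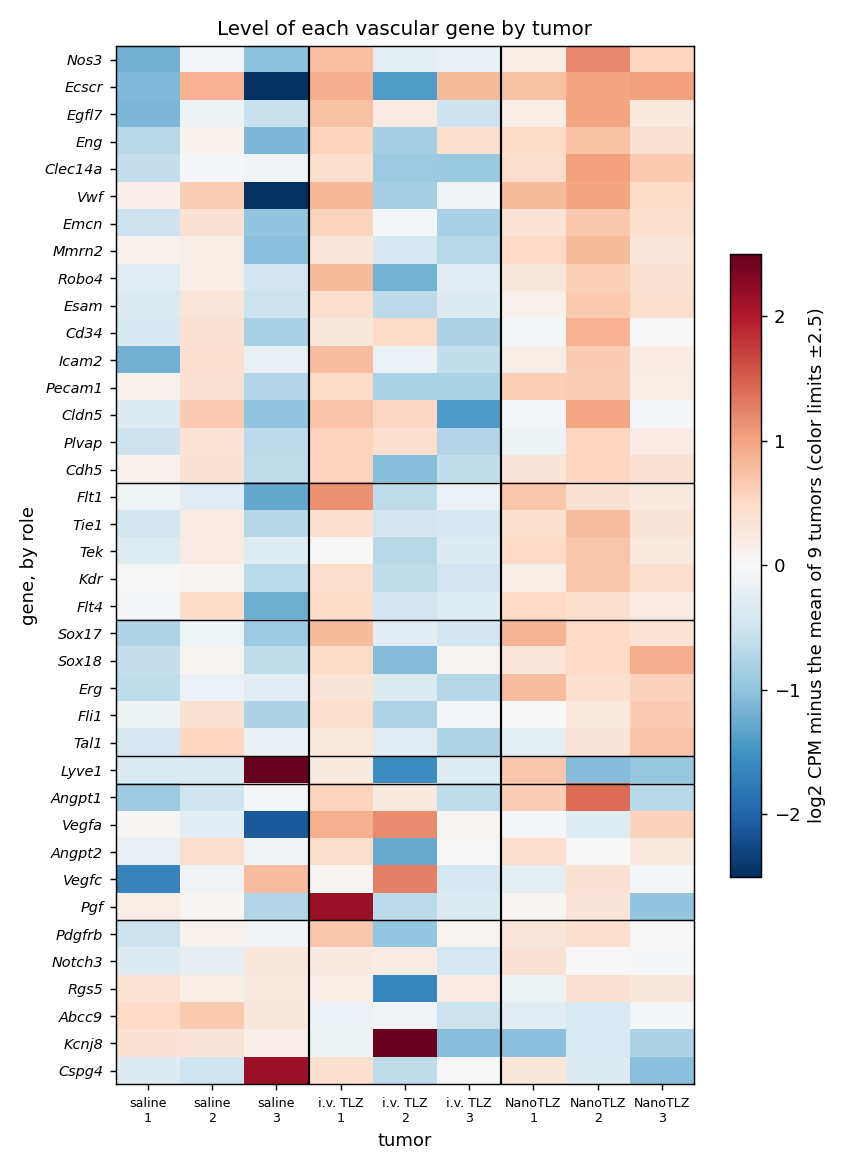
Log2 CPM of 38 vascular genes (rows, grouped by role) in 9 tumors (columns), as the difference from each gene's mean over the tumors; colors end at ±2.5. Endothelial rows are mostly red in the 3 NanoTLZ columns, in i.v. TLZ tumor 1 and in saline tumor 2, whose endothelial mean is 0.22. They are mostly blue in saline tumors 1 and 3 and i.v. TLZ tumors 2 and 3.

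Endothelial levels varied between tumors of 1 group as well as between groups. Their summed level was 371, 549.7 and 245 CPM in saline tumors 1 to 3, 708, 345 and 375 CPM in the i.v. TLZ tumors and 599.7, 728 and 589 CPM in the NanoTLZ tumors. All NanoTLZ tumors lay above all saline tumors, while the i.v. TLZ group held both 1 of the highest tumors and 2 low ones. NanoTLZ tumor 2 had the highest level for 14 of the 27 tested endothelial genes and i.v. TLZ tumor 1 for 5, and saline tumor 3 had the lowest for 12. The spread was smallest within the NanoTLZ group, where the median coefficient of variation was 18.3%, against 38.3% in saline and 43.8% in i.v. TLZ tumors, and NanoTLZ had the smallest of the 3 for 25 of the 27 genes. The group mean was highest after NanoTLZ for 26 of them, *Lyve1* being the exception.

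No vascular gene was called in any comparison. At an adjusted p under 0.05 in edgeR's quasi-likelihood test, 0 of 38 genes passed for i.v. TLZ against saline (0% of all genes tested), 0 for NanoTLZ against saline (0.00632% of all), 0 for NanoTLZ against i.v. TLZ (0% of all) and 0 for the mean of both treated groups against saline (0.019% of all). DESeq2 called 0 of them too, in the fit to all 9 tumors and in the fits to 2 groups, although it called 100 genes higher and 94 lower over the whole table for free TLZ and 57 higher and 53 lower for NanoTLZ. What follows therefore gives levels, folds and intervals for genes that did not pass the test.

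After i.v. TLZ, the endothelial fold changes lay on both sides of 0 and depended on single tumors. A log2 fold change above 0 was found for 20 of 27, with a median of 0.17, against 47.6% and a median of -0.03 over all genes tested. No endothelial gene was above all saline tumors in all i.v. TLZ tumors (5.99% of all genes) and none below (5.2% of all). With single tumors of the 2 groups left out, 8 to 25 of 27 were positive. The lowest medians came without i.v. TLZ tumor 1 (-0.20, 8 positive) and without saline tumor 3 (-0.01, 13 positive). The highest came without saline tumor 2 (0.48, 25 positive), and without i.v. TLZ tumors 2 and 3 in turn 23 were positive, with medians of 0.25 and 0.31. Unadjusted p under 0.05 was reached by 1 listed gene with higher counts, *Vegfa* (4.91% of all genes), and by 2 with lower counts, *Abcc9* and *Lyve1* (5.47% of all).

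After NanoTLZ, 26 of 27 endothelial genes had a log2 fold change above 0 against saline, with a median of 0.62, where 43.9% of all genes were positive with a median of -0.09. All 3 NanoTLZ tumors lay above all 3 saline tumors for 13 of the 27, against 7.82% of all genes tested. These were *Eng*, *Robo4*, *Clec14a*, *Mmrn2*, *Egfl7* and *Nos3* of the surface and secreted genes, *Kdr*, *Flt1*, *Tek* and *Tie1* of the receptors, and *Erg*, *Sox17* and *Sox18* of the transcription factors. With single tumors left out the number was 13 to 25, where 11.4% to 17.1% of all genes were separated. Leaving a tumor out can only keep or add separated genes, apart from small shifts in scaling, so it could hardly lower the number. The 25 came without saline tumor 2, where 17.1% of all genes were. Without saline tumors 1 and 3 in turn it was 13, where 14.9% and 14.7% of all genes were. The genes were measured in the same tumors and are not independent of each other. At an unadjusted p under 0.05, *Nos3*, *Egfl7*, *Eng*, *Erg* and *Sox17* were higher (5 genes, where 3.51% of all genes were) and *Abcc9* was lower (1 gene, where 5.49% were).

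The comparisons with saline share the 3 saline tumors. Set directly against the i.v. TLZ tumors, NanoTLZ gave a log2 fold change above 0 for 27 of 27 endothelial genes, with a median of 0.51, against 45.6% and a median of -0.04 over all genes. *Clec14a*, *Tek* and *Erg* were above all i.v. TLZ tumors in all NanoTLZ tumors (3 of 27, against 3.2% of all genes). No listed gene was higher at an unadjusted p under 0.05, and 1, *Kcnj8*, was lower (1.23% of all genes). The median was 0.33 to 0.89 with single tumors left out, the highest without i.v. TLZ tumor 1. In these fits 22 to 27 of the 27 were positive, the fewest without i.v. TLZ tumor 3. Because the 95% intervals mostly reached past 0 on both sides, neither a difference between the 2 forms nor its absence was shown.

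For the mean of both treatments against saline, 26 of 27 endothelial genes were positive, with a median of 0.41. Over all genes tested, 7275 of 15821 were positive, with a median of -0.06. Higher counts at an unadjusted p under 0.05 were found for *Nos3*, *Egfl7* and *Eng* (3 genes, where 4.8% of all genes were) and lower counts for *Abcc9* and *Lyve1* (2 genes, where 8.29% were). *Abcc9* was the 1 listed gene below all saline tumors in all 6 treated tumors (2.66% of all genes), and no listed gene was above them in all 6 (444 of 15821 genes tested).

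**Figure D2:**
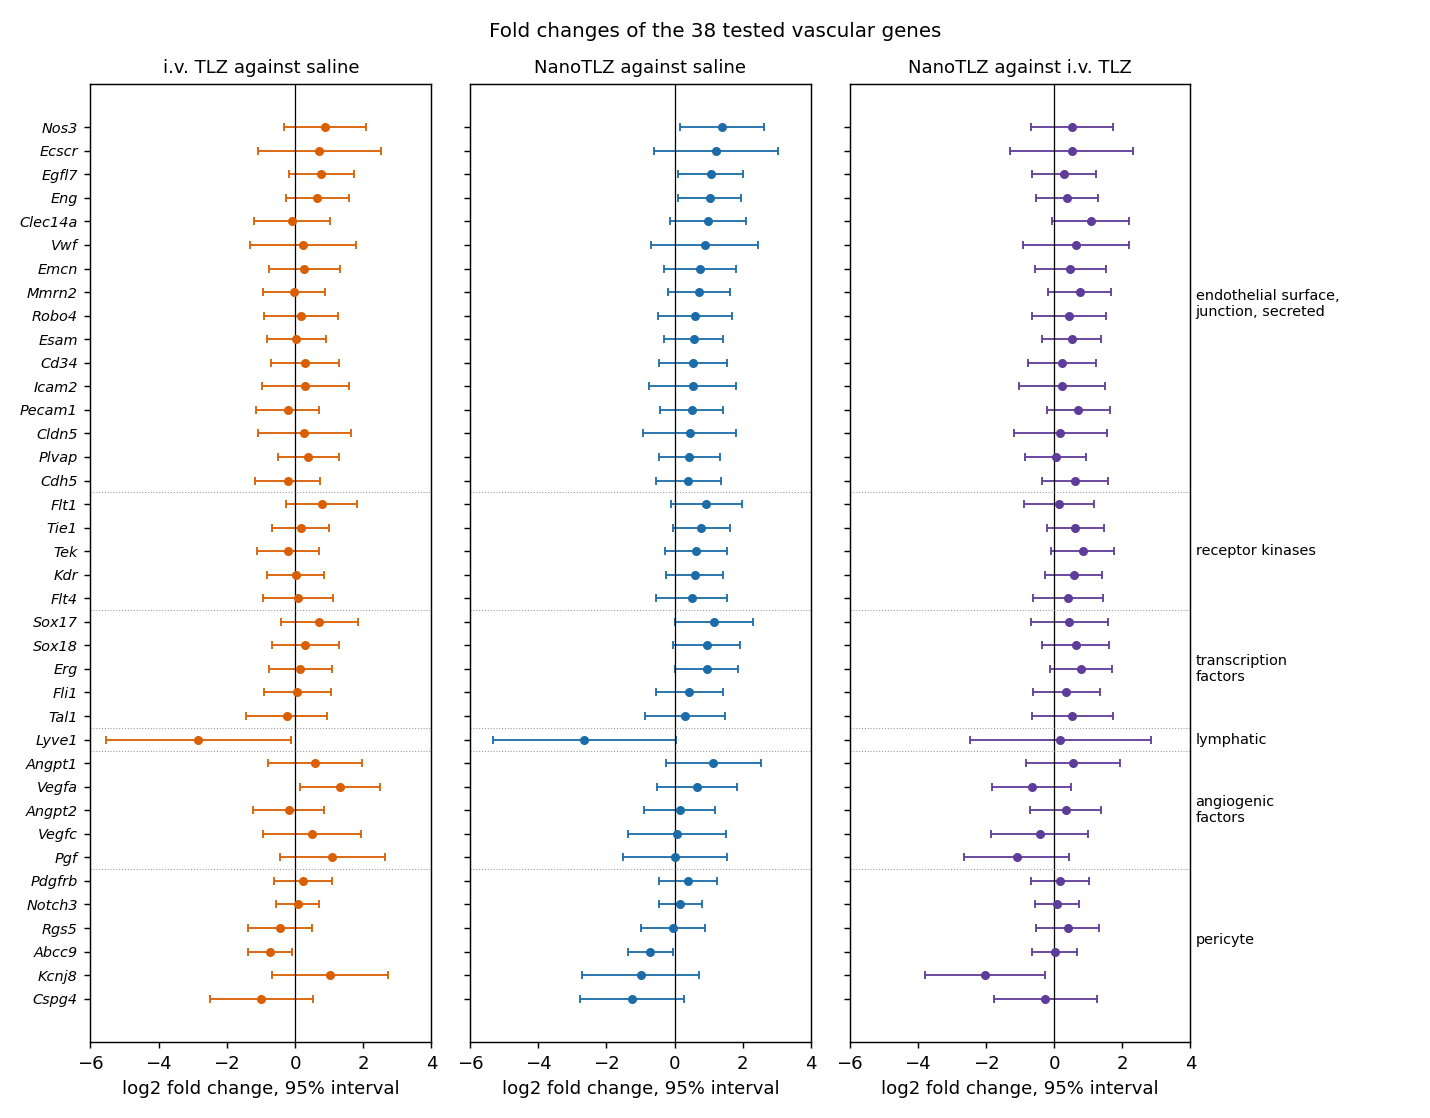
Log2 fold change (points) with its 95% interval (bars) from the edgeR fit for 38 vascular genes, grouped by role, in 3 comparisons. After NanoTLZ against saline the endothelial points other than Lyve1 lie right of 0, from 0.30 to 1.40, while most bars cross 0.

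Among the surface and secreted endothelial genes, *Nos3*, the endothelial nitric oxide synthase that relaxes vessels, had the largest fold (GRCm38 chromosome 5, 24364810 to 24384474). It was counted at 1.202, 2.81 and 1.38 CPM in the saline tumors, at 4.94, 2.46 and 2.54 CPM after i.v. TLZ and at 3.23, 6.77 and 4.24 CPM after NanoTLZ. NanoTLZ did not overlap saline, and i.v. TLZ overlapped both. The log2 fold change was 1.40 ± 0.55 (SE) for NanoTLZ against saline, with an adjusted p of 0.5518, and 0.88 ± 0.55 for i.v. TLZ, with an adjusted p of 0.579. Exons of *Atg9b* on the opposite strand cover 7.12% of the exon length of *Nos3* and hold 4132 counts against its 577, and since the strand setting of the counting is not given in the sources used here, reads of the 2 genes cannot be told apart there.

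*Egfl7*, a secreted matrix factor of growing vessels that also hosts a microRNA, lies on chromosome 2 from 26580014 to 26593120. Its levels were 7.27, 14.5 and 10.9 CPM in saline, 26.5, 18.3 and 11.04 CPM after i.v. TLZ and 17.96, 31.5 and 19.0 CPM after NanoTLZ. Saline tumors were the lowest apart from 1 i.v. TLZ tumor that fell within their range. The log2 fold change was 1.07 ± 0.43 after NanoTLZ (adjusted p = 0.5518) and 0.77 ± 0.43 after i.v. TLZ (adjusted p = 0.5423).

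*Eng* encodes endoglin, a co-receptor for TGF-beta and BMP ligands that is abundant on proliferating endothelium (chromosome 2, 32646595 to 32682669; its promoter window is shown above). Saline tumors had 21.2, 36.2 and 15.7 CPM, i.v. TLZ tumors 50.2, 19.1 and 45.2 CPM and NanoTLZ tumors 47.7, 57.2 and 44.2 CPM. The log2 fold change after NanoTLZ was 1.03 ± 0.42 (adjusted p = 0.5518) and after i.v. TLZ 0.65 ± 0.42 (adjusted p = 0.59). Within the i.v. TLZ group, tumor 2 lay inside the saline range and the other two were level with NanoTLZ.

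*Clec14a*, a C-type lectin of tumor endothelium, separated NanoTLZ from both other groups. Its levels were 2.46, 3.67 and 3.53 CPM in saline, 5.14, 1.97 and 1.95 CPM after i.v. TLZ and 5.20, 7.80 and 6.05 CPM after NanoTLZ, so the lowest NanoTLZ tumor was just above the highest i.v. TLZ tumor. NanoTLZ exceeded i.v. TLZ by 1.07 ± 0.51 on the log2 scale (95% interval -0.06 to 2.20, adjusted p = 0.9999) and saline by 0.98 ± 0.50 (adjusted p = 0.5764). Against saline, i.v. TLZ gave -0.09 ± 0.50 (adjusted p = 0.9614).

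The general markers were less separated. *Pecam1* (CD31) had 33.2, 40.6 and 18.7 CPM in saline, 43.4, 18.1 and 18.02 CPM after i.v. TLZ and 47.6, 48.0 and 35.2 CPM after NanoTLZ. *Cdh5* (VE-cadherin) had 32.5, 38.98 and 19.4 CPM, 44.4, 14.4 and 19.6 CPM, and 37.5, 43.4 and 39.3 CPM in the same order. Groups overlapped for both genes, and 2 of the 3 i.v. TLZ tumors were at or near the low end. For i.v. TLZ against saline, the log2 fold change was -0.22 ± 0.42 for *Pecam1* (adjusted p = 0.8833) and -0.21 ± 0.43 for *Cdh5* (adjusted p = 0.8882). For NanoTLZ it was 0.50 ± 0.42 (adjusted p = 0.7088) and 0.40 ± 0.43 (adjusted p = 0.7768), and these intervals allowed folds in either direction.

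Of the 16 surface and secreted genes, 12 were positive after i.v. TLZ, from -0.22 to 0.88, and 16 after NanoTLZ, from 0.40 to 1.40. The other members were *Esam*, *Icam2* and *Cldn5* of the junctions, the sialomucins *Emcn* and *Cd34*, the clotting factor carrier *Vwf*, *Plvap*, *Robo4*, *Mmrn2* and *Ecscr*. The widest spread was that of *Ecscr* and *Vwf*, which stood at 3.49 CPM and 4.36 CPM in saline tumor 3. In saline tumor 2 they stood at 47.3 CPM and 50.2 CPM. Their highest levels were 52.6 CPM for *Ecscr* in NanoTLZ tumor 3 and 64.8 CPM for *Vwf* in NanoTLZ tumor 2. Saline tumor 3 was the lowest for 6 of the 16 genes.

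All 5 receptor tyrosine kinases had positive folds after NanoTLZ, from 0.50 to 0.93 on the log2 scale, and 4 of 5 after i.v. TLZ, from -0.21 to 0.79. *Kdr* was at 20.7, 21.5 and 12.7 CPM in saline, 27.9, 13.1 and 14.7 CPM after i.v. TLZ and 23.1, 32.5 and 27.3 CPM after NanoTLZ. *Tek* was at 3.38, 4.86 and 3.39 CPM, 4.17, 2.57 and 3.30 CPM, and 6.02, 6.88 and 5.02 CPM in the same order. Every NanoTLZ tumor exceeded every saline tumor for both genes, and for *Tek* every i.v. TLZ tumor as well. *Kdr* differed from saline by 0.60 ± 0.37 after NanoTLZ (adjusted p = 0.6224) and 0.02 ± 0.37 after i.v. TLZ (adjusted p = 0.9892). *Tek* differed by 0.62 ± 0.41 (adjusted p = 0.6353) and -0.21 ± 0.41 (adjusted p = 0.8835), and between NanoTLZ and i.v. TLZ by 0.83 ± 0.41 (95% interval -0.09 to 1.75, adjusted p = 0.9999). *Flt1*, *Tie1* and the lymphatic and angiogenic receptor *Flt4* had log2 fold changes of 0.93, 0.79 and 0.50 after NanoTLZ. *Flt1* reached its highest level, 114 CPM, in i.v. TLZ tumor 1, where *Pgf* was also highest.

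The transcription factors that set endothelial identity had log2 fold changes above 0 in 5 of 5 after NanoTLZ. These ran from 0.30 for *Tal1*, which blood-forming cells also express, to 1.16 for *Sox17*, an arterial factor. *Sox17* was at 1.602, 2.573 and 1.422 CPM in saline, 4.896, 2.296 and 2.002 CPM after i.v. TLZ and 5.054, 3.984 and 3.518 CPM after NanoTLZ, with i.v. TLZ overlapping both other groups. Across the factors, i.v. TLZ gave positive values for 4 of 5, from -0.24 to 0.71. *Erg* (chromosome 16, 95359169 to 95586593), the ETS factor used as a nuclear marker of endothelium, was at 3.66, 5.19 and 4.77 CPM in saline, 7.22, 4.54 and 3.46 CPM after i.v. TLZ and 9.92, 7.64 and 8.64 CPM after NanoTLZ. All NanoTLZ tumors were above the other 6. NanoTLZ exceeded saline by 0.94 ± 0.41 (adjusted p = 0.5532) and i.v. TLZ by 0.78 ± 0.41 (adjusted p = 0.9999), and i.v. TLZ differed from saline by 0.16 ± 0.41 (adjusted p = 0.9121). Its ETS relative *Fli1*, which leukocytes also express, had 0.43 after NanoTLZ and 0.07 after i.v. TLZ.

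**Figure D3:**
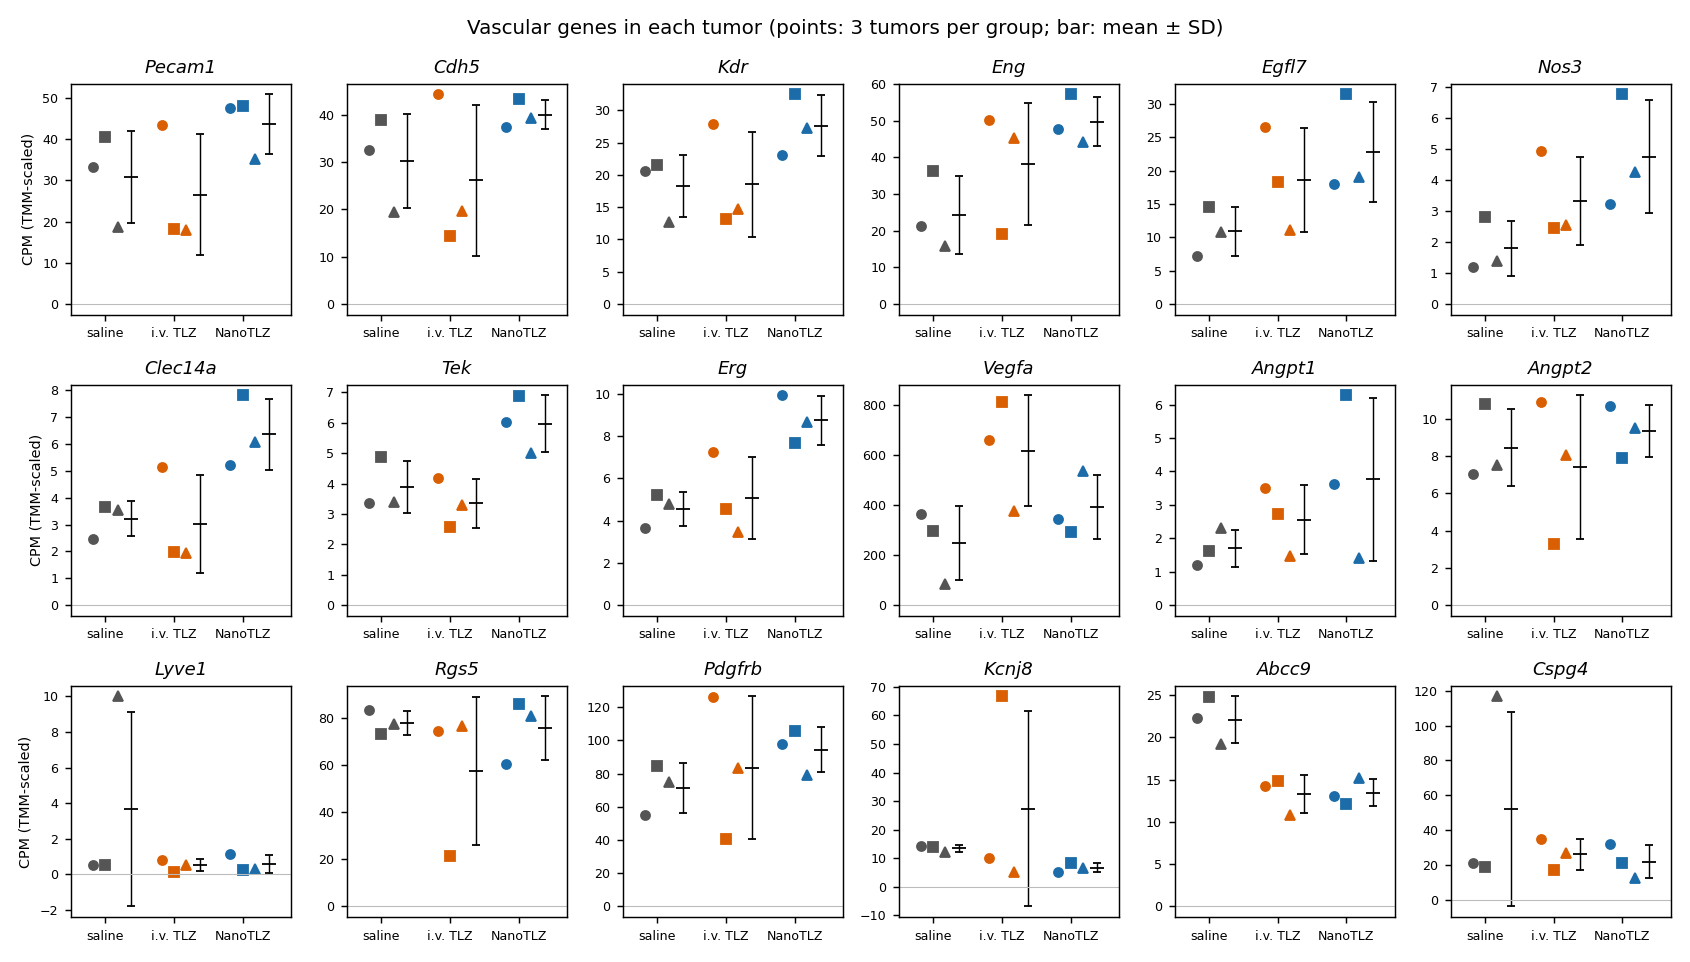
CPM of 18 vascular genes in each tumor (points; circle, square and triangle are tumors 1, 2 and 3) for 3 groups, with the group mean ± SD beside them; each panel has its own axis. Abcc9 lies lower in all 6 treated tumors, Kcnj8 and Lyve1 have 1 high tumor each, and Erg and Tek are highest in the 3 NanoTLZ tumors.

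*Lyve1*, the hyaluronan receptor of lymphatic endothelium and of some macrophages (chromosome 7, 110850607 to 110863239), was set by 1 tumor. It was at 0.515, 0.524 and 10 CPM in saline tumors 1 to 3, 0.824, 0.164 and 0.541 CPM after i.v. TLZ and 1.16, 0.273 and 0.310 CPM after NanoTLZ. Saline tumor 3 alone held 218 counts, where the other tumors held 3 to 24. Against saline, i.v. TLZ gave -2.83 ± 1.22 on the log2 scale (adjusted p = 0.4655) and NanoTLZ gave -2.65 ± 1.21 (adjusted p = 0.5602). Without saline tumor 3 these were -0.02 and 0.19. *Prox1* had 6 counts in that tumor, and the *Lyve1* macrophage markers (4 of 5 tested) summed to 111 CPM there, against 52.6 and 64.9 CPM in the other saline tumors, 45.5 to 107 CPM after i.v. TLZ and 71.4 to 140.5 CPM after NanoTLZ. Skeletal muscle genes (7 of 8 tested) summed to 456 CPM in saline tumor 3, against 23.7 and 142 CPM in the other saline tumors and 10.4 to 15.3 CPM in treated tumors, and the part of macrophages or of muscle tissue in the *Lyve1* level was not tested.

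Among the angiogenic factors, *Vegfa* (chromosome 17, 46016993 to 46032369) was the most abundant and the 1 factor whose i.v. TLZ tumors did not overlap saline. Such separation above saline was seen in 1 of the 38 tested listed genes, against 5.99% of all genes. Saline tumors had 363, 296 and 83.2 CPM, i.v. TLZ tumors 660.0, 811 and 377 CPM and NanoTLZ tumors 345, 292 and 534 CPM. The lowest i.v. TLZ tumor was only just above the highest saline tumor, and NanoTLZ overlapped both groups. Against saline, i.v. TLZ gave 1.32 ± 0.53 on the log2 scale (2.49-fold, adjusted p = 0.4504) and NanoTLZ 0.66 ± 0.52 (adjusted p = 0.6927), with -0.66 ± 0.52 between NanoTLZ and i.v. TLZ (95% interval -1.82 to 0.50, adjusted p = 0.9999). Without saline tumor 3 the log2 fold change after i.v. TLZ was 0.92. Hypoxia response genes (10 of 10 tested), which share control by low oxygen with *Vegfa*, summed to 2156, 1907 and 1321 CPM in saline, 2840.1, 2353 and 2306 CPM after i.v. TLZ and 1808, 1599 and 1774 CPM after NanoTLZ. For i.v. TLZ against saline, 9 of the 10 were positive with a median of 0.48, and for NanoTLZ 5 with a median of -0.09. Their part in the level of *Vegfa* was not tested.

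The angiopoietins stayed within the spread of the tumors. *Angpt1* was at 1.202, 1.62 and 2.29 CPM in saline, 3.49, 2.73 and 1.46 CPM after i.v. TLZ and 3.61, 6.28 and 1.40 CPM after NanoTLZ, with log2 fold changes of 0.58 ± 0.62 (adjusted p = 0.7623) and 1.14 ± 0.62 (adjusted p = 0.5897). *Angpt2* was at 7.04, 10.8 and 7.52 CPM, 10.9, 3.28 and 8.06 CPM, and 10.7, 7.91 and 9.52 CPM, with -0.19 ± 0.46 (adjusted p = 0.9077) and 0.15 ± 0.46 (adjusted p = 0.9386). Groups overlapped for both ligands. The count ratio of *Angpt2* to *Angpt1*, often read as a balance of vessel destabilizing and stabilizing signals, was 3.28 to 6.68 in saline, 1.2 to 5.52 after i.v. TLZ and 1.26 to 6.81 after NanoTLZ, so it overlapped as well. *Pgf*, a second ligand of VEGFR1, was at 420.1 CPM in i.v. TLZ tumor 1 and at 47.1 to 117 CPM in the other 8. *Vegfc*, the lymphatic growth factor, ran from 2.003 to 16.0 CPM, with folds of 0.49 after i.v. TLZ and 0.07 after NanoTLZ.

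Pericyte genes did not share 1 direction. Of 6 genes, 3 were positive after i.v. TLZ with a median of -0.18, and 2 after NanoTLZ with a median of -0.38, and without saline tumor 3 these medians were 0.28 and 0.08. *Rgs5*, a G protein regulator used as a pericyte marker, was at 83.4, 73.4 and 77.4 CPM in saline, 74.4, 21.4 and 76.8 CPM after i.v. TLZ and 60.5, 86.0 and 80.8 CPM after NanoTLZ. *Pdgfrb*, the receptor that recruits pericytes and that fibroblasts share, was at 54.9, 84.5 and 75.1 CPM, 126, 40.5 and 83.5 CPM, and 97.7, 106 and 79.3 CPM. Both were lowest in i.v. TLZ tumor 2. The log2 fold changes of *Rgs5* were -0.44 ± 0.42 after i.v. TLZ (adjusted p = 0.7305) and -0.04 ± 0.42 after NanoTLZ (adjusted p = 0.9829), the latter turning positive under upper quartile scaling. Those of *Pdgfrb* were 0.22 ± 0.38 (adjusted p = 0.8631) and 0.40 ± 0.38 (adjusted p = 0.7486). *Notch3*, the mural Notch receptor, had the smallest ratio of highest to lowest tumor among the 38 genes, 1.73, at 77.9 to 135 CPM. *Cspg4* (NG2), which other cell types also express, was at 117 CPM in saline tumor 3 and 12.8 to 34.9 CPM elsewhere.

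*Kcnj8* and *Abcc9* encode the pore (Kir6.1) and the regulatory subunit (SUR2) of the vascular ATP-sensitive potassium channel, which mark pericytes and vascular smooth muscle. They are neighbors on chromosome 6, *Kcnj8* from 142564837 to 142571614 and *Abcc9* from 142587862 to 142702315, with 16247 bases between them. *Abcc9* was at 22.3, 24.7 and 19.2 CPM in saline, 14.3, 14.9 and 10.8 CPM after i.v. TLZ and 13.1, 12.1 and 15.2 CPM after NanoTLZ. All 6 treated tumors lay below all 3 saline tumors, which held for 1 of the 38 tested listed genes and for 2.66% of all genes. Against saline, the log2 difference of the i.v. TLZ tumors was -0.73 ± 0.29 (adjusted p = 0.4504), that of the NanoTLZ tumors -0.71 ± 0.29 (adjusted p = 0.5518) and that of both together -0.72 ± 0.25 (95% interval -1.27 to -0.17, adjusted p = 0.2949), and the 2 treated groups differed by 0.02 ± 0.29 (95% interval -0.63 to 0.67). SUR2 is also a subunit of the channel of striated muscle, and skeletal muscle genes were lower in every treated tumor than in every saline tumor when summed, as given above for *Lyve1*. edgeR called 0 skeletal muscle genes, with 6 of 7 lower in each treated group at an unadjusted p under 0.05, and DESeq2 called 4 lower in each. The part of muscle in the *Abcc9* difference was not tested.

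*Kcnj8* was lower beside its partner after NanoTLZ, without passing the test. Saline tumors had 14.3, 13.9 and 12.1 CPM, i.v. TLZ tumors 10.1, 66.6 and 5.19 CPM and NanoTLZ tumors 5.30, 8.46 and 6.42 CPM. All NanoTLZ tumors lay below all saline tumors, which with *Abcc9* made 2 listed genes (8.13% of all genes). The i.v. TLZ group held the highest and the lowest of the 9 levels. NanoTLZ against i.v. TLZ gave -2.02 ± 0.79 (adjusted p = 0.9999), which was -0.18 without i.v. TLZ tumor 2, and NanoTLZ against saline gave -0.996 ± 0.77 (adjusted p = 0.6839). For i.v. TLZ against saline the value was 1.03 ± 0.77 (adjusted p = 0.6406), and -0.81 without that tumor.

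Pericyte and endothelial transcripts were also set against each other within each tumor. The count ratio of *Rgs5* to *Pecam1* was 1.81 to 4.14 in saline, 1.18 to 4.26 after i.v. TLZ and 1.27 to 2.30 after NanoTLZ, and that of *Pdgfrb* to *Pecam1* was 1.65 to 4.01, 2.23 to 4.64 and 2.05 to 2.25. These ranges overlapped. The ratio of *Kdr* to *Flt1* was 0.425 to 0.597 in saline, 0.245 to 0.392 after i.v. TLZ and 0.272 to 0.478 after NanoTLZ, so that every i.v. TLZ tumor was below every saline tumor. The ratio of *Vegfa* to *Flt1* overlapped, at 3.91 to 7.47, 5.79 to 24.2 and 4.07 to 8.65. The ratio of *Angpt2* to its receptor *Tek* was 2.08 to 2.23 in saline, 1.28 to 2.62 after i.v. TLZ and 1.15 to 1.90 after NanoTLZ, so that every NanoTLZ tumor was below every saline tumor. These ratios were computed among 10 pairs and carry no test.

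Other genes of the same system were read from lists of their own. Of 38 further angiogenesis pathway genes, 23 were positive with i.v. TLZ against saline and 29 with NanoTLZ. An unadjusted p under 0.05 with higher counts was found for 5 and 7 of them and with lower counts for 0, where 4.91% and 3.51% of all genes were higher and 5.47% and 5.49% lower. edgeR called 0, and DESeq2 fitted to all tumors called *Smad6* higher for i.v. TLZ and *Aplnr* higher for NanoTLZ. *Smad6*, the BMP inhibitor of endothelium, *Pdgfb*, the endothelial ligand of *Pdgfrb*, and *Angptl2* had the smallest p after i.v. TLZ, with log2 fold changes of 1.78, 1.21 and 0.93. Levels of *Pdgfb* were 107, 165 and 91.8 CPM in saline, 318, 238 and 285 CPM after i.v. TLZ and 296, 211 and 166 CPM after NanoTLZ, though tumor cells can make it too. *Aplnr*, the apelin receptor of sprouting veins, had the smallest after NanoTLZ, with 1.33 (6.64, 6.81 and 8.95 CPM in saline against 19.0, 20.9 and 16.3 CPM). Of 26 further endothelial genes 23 were tested, and 14 and 18 were positive. With higher counts, 3 and 6 reached an unadjusted p under 0.05, and with lower counts 0 and 1. edgeR called 0, and DESeq2 called *Gja4* and *Selp* higher for NanoTLZ. Among these *Gja4*, the arterial connexin 37, had 4.52, 4.96 and 5.00 CPM in saline, 18.7, 9.24 and 9.41 CPM after i.v. TLZ and 15.2, 20.2 and 13.8 CPM after NanoTLZ, with log2 fold changes of 1.37 ± 0.39 (adjusted p = 0.4172) and 1.76 ± 0.39 (adjusted p = 0.5518). The adhesion receptor *Selp*, which platelets also carry, and the water channel *Aqp1* had 2.64 and 1.75 after NanoTLZ.

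Markers of other cell types varied beside the endothelial genes. Brackets give the number of genes tested, while sums cover the whole list. Leukocyte genes (8 of 8 tested) summed to 381, 823 and 193 CPM in saline, 819, 320.2 and 647 CPM after i.v. TLZ and 881, 733 and 1084 CPM after NanoTLZ, and 8 of 8 were positive after NanoTLZ with a median of 1.06. Fibroblast genes (9 of 9) summed to 1458 to 2082 CPM, 1014 to 6180.4 CPM and 1723 to 3195 CPM, with 9 and 8 positive. Smooth muscle and contractile mural genes (10 of 12) summed to 347 to 464 CPM, 172 to 483 CPM and 322 to 440.1 CPM, with 7 positive in each. Proliferation genes (8 of 8), which mark mainly tumor cells, were negative in all 8 in both groups, with sums of 529 to 1950.1 CPM in saline, 230.2 to 498 CPM after i.v. TLZ and 341 to 414 CPM after NanoTLZ. edgeR called 0 genes of these 4 lists in either comparison with saline. At an unadjusted p under 0.05, i.v. TLZ and NanoTLZ had 1 and 1 leukocyte genes and 1 and 3 fibroblast genes with higher counts, and 8 and 8 proliferation genes with lower counts. In smooth muscle genes, 1 was higher and 1 lower with i.v. TLZ, and 1 was lower with NanoTLZ. DESeq2 fitted to all 9 tumors called *Top2a* lower in the proliferation list for i.v. TLZ and *Cd79a* higher in the leukocyte list for NanoTLZ. The part of a changed share of stroma, leukocytes or tumor cells in the endothelial levels was not tested.

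**Figure D4:**
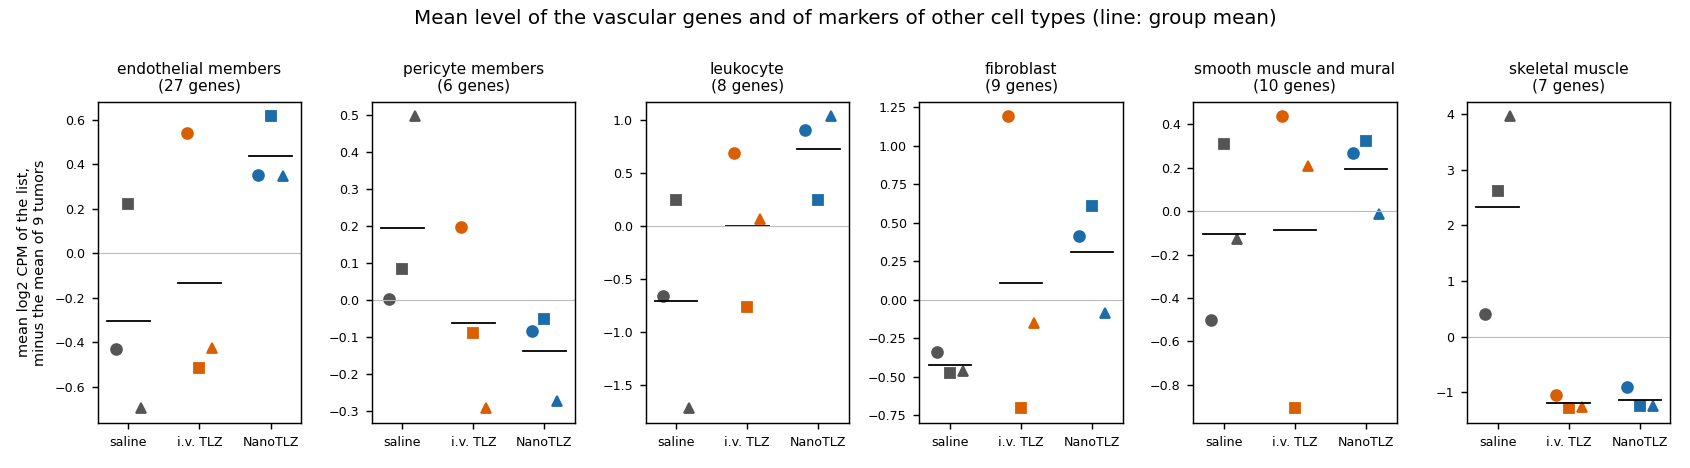
Mean log2 CPM of a gene list in each tumor, as the difference from the mean of 9 tumors (points; lines are group means), for the endothelial and pericyte genes and 4 lists of other cell types; each panel has its own axis. Endothelial, leukocyte, fibroblast and smooth muscle lists have their highest group mean after NanoTLZ. The skeletal muscle list is lower in all 6 treated tumors than in the 3 saline tumors.

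The remaining lists concern blood and fat, and their sums again cover the genes that were not tested. Platelet genes (4 of 5 tested) summed to 18.5 to 24.2 CPM in saline, 34.1 to 45.6 CPM after i.v. TLZ and 15.2 to 30.7 CPM after NanoTLZ, so that i.v. TLZ lay above both other groups. Erythroid genes (4 of 6) summed to 23.2 to 59.5 CPM, 3.14 to 22.2 CPM and 1.40 to 8.69 CPM, and the sum was lower in every treated tumor than in every saline tumor. Adipocyte genes (3 of 8) summed to 15.5 to 27.6 CPM, 9.24 to 45.6 CPM and 18.7 to 113 CPM. edgeR called 0 genes of these 3 lists against saline, with 2 erythroid genes lower after NanoTLZ at an unadjusted p under 0.05, and DESeq2 called 1 of them, *Hbb-bs*, lower. Their part in the vascular levels was not tested.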

How the data were processed

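RNA of 9 tumors was sequenced, 3 per treatment. The values deposited by the authors are raw counts of reads on each gene, with no normalization. TopHat2, DESeq2 and mm10 are named in the submitters' processing notes, and the counting program, annotation and strand setting are not given in the sources used here. Symbols came from GENCODE M21 (GRCm38), which matched 34490 of 35275 identifiers.

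Counts were filtered with filterByExpr (minimum count 10, minimum total 15), scaled by TMM and fitted to all 9 tumors with 1 coefficient per group. Groups were compared with the quasi-likelihood F-test of edgeR 4.0.16 (R 4.3.3), with Benjamini-Hochberg adjustment over 15821 genes. The biological coefficient of variation was 49.8%. Each SE is the log2 fold change divided by the root of F. A group does not overlap another where all its tumors lie on 1 side. Alternatives were DESeq2 1.42.0, fits to 2 groups, RLE and upper quartile scaling, no filter and each tumor left out. The counts of separated genes under these, and the DESeq2 calls in the other lists, were chosen after seeing the data. The code was tested on simulated data. Figures used Python 3.11.15 and matplotlib 3.10.9.

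The members, the other gene lists and the tests were chosen with earlier results of these data known. Full statistics went to 10 preset genes and, per comparison, the 4 listed genes with the smallest unadjusted p. Up to 3 genes were named per other list and comparison. Other listed genes given with shorter values were singled out after their values were seen. Tumor numbers are names only and pair nothing.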

Additional observations from a re-analysis of the deposited data

How the results depend on the processing

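In DESeq2 fitted to all tumors, the other scalings, the unfiltered fit and the fits without 1 tumor, 0 vascular genes were called in each of the 4 comparisons, and likewise in the fits to 2 groups, which were run for the 3 comparisons between single groups. Of the log2 fold changes of single genes, 603 values kept their sign and side of the threshold and 19 changed sign. *Rgs5* after NanoTLZ was 0.047 under upper quartile scaling, where 53.04% of all genes at an unadjusted p under 0.05 were higher, against 39.002% under TMM (47.6% against 36.7% for both treatments). With single tumors left out, changes of sign came for i.v. TLZ in *Pecam1* (-0.77 to 0.027), *Cdh5* (-0.83 to 0.077), *Kdr* (-0.40 to 0.22), *Angpt2* (-0.58 to 0.16), *Pdgfrb* (-0.20 to 0.55), *Kcnj8* (-0.81 to 1.54), *Clec14a* (-0.72 to 0.15) and *Erg* (-0.18 to 0.38), for NanoTLZ in *Lyve1* (-3.62 to 0.19) and *Rgs5* (-0.11 to 0.10), and for both treatments in *Lyve1* (-3.25 to 0.088). The pericyte median ranged from -0.44 to 0.28 for i.v. TLZ, -0.42 to 0.075 for NanoTLZ and -0.41 to 0.13 for both. With single tumors left out, the number of endothelial genes with NanoTLZ above saline ranged from 13 to 25, where 11.4% to 17.1% of all genes were separated. Since leaving a tumor out can hardly lower this number, the range does not check it. Under RLE and upper quartile scaling of all tumors it was 13, where 8.14% and 9.49% of all genes were, against 7.82% under TMM. The endothelial median ranged from -0.20 to 0.48 for i.v. TLZ, 0.49 to 0.97 for NanoTLZ and 0.18 to 0.79 for both. The cause was not tested. Over all genes, edgeR called 1 gene for NanoTLZ and 3 for both treatments, and DESeq2 fitted to all tumors called 57 higher and 53 lower, and 126 higher and 147 lower. Without the filter, edgeR called 5 higher and 28 lower for both treatments. No paired analysis was possible because tumor labels carry no number that recurs between treatments. With 3 tumors per group, each p-value sets a group difference against a spread between tumors that is estimated from few tumors. Low genes were poorly measured at this depth, and *Prox1*, with 1 to 19 counts per tumor, did not pass the filter of the main fit.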
